A study of Mus musculus with 2 samples.

Results

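The HoxA cluster was described here as 1 window of mouse chromosome 6, chr6:52050000-52300000 (mm8), which takes in the cluster and its flank towards Evx1. The members were the 35 peaks of the authors' list that overlapped this window, out of 3445 peaks in all. They come from chromatin immunoprecipitation with sequencing (ChIP-seq) in E14 cells, a line of mouse embryonic stem cells grown on gelatin with the cytokine LIF, which keeps them pluripotent. The PHF19 ChIP library was recovered with a custom rabbit polyclonal antibody against PHF19, and the input library was sonicated DNA sequenced without an antibody; the cells of both carried no further treatment in the labels. Each group had 1 library. No value therefore carries an error between replicates, and the tests compared the reads of these 2 libraries. No library tested the specificity of the antibody.

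The Hox clusters encode homeodomain transcription factors that give cells along the body axis their position, and their genes are activated in the order in which they lie on the chromosome. In embryonic stem cells the clusters are silent and are classical targets of Polycomb repressive complex PRC2, which methylates lysine 27 of histone H3. PHF19 is a Polycomb-like protein, an accessory subunit of PRC2, with a Tudor domain that binds methylated lysine 36 of histone H3. Polycomb-like proteins also carry a winged-helix domain that binds unmethylated DNA rich in the dinucleotide CG.

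The 10 named genes were Hoxa2, Hoxa3, Hoxa4, Hoxa5, Hoxa6, Hoxa7, Hoxa9, Hoxa10, Hoxa11 and Hoxa13. In RefSeq's gene table for the later assembly GRCm38.p6 they lie in this order of rising coordinate, followed by Evx1, a homeobox gene of spinal interneurons, as the next protein-coding gene. Hoxa2 acts in the hindbrain and the pharyngeal arches, Hoxa3 in the thymus and parathyroid, Hoxa5 in the lung and neck skeleton, Hoxa9 in blood stem cells, Hoxa10 and Hoxa11 in the uterus, and Hoxa13 in the digits. An annotation of mm8 was not used here. The name of the window was therefore not checked against genes, and no peak below is assigned to a gene.

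The promoters of the named genes give the sequence setting, since CG-rich DNA is what the winged-helix domain binds. Of the 10 genes, 9 had an entry in RefSeq's promoter table (GRCm38.p6, 250 bases before to 50 after the gene's start), with 10 promoters in all because Hoxa10 had a pair; Hoxa4 had none. The number of CG dinucleotides in these 300 bases was 9 for Hoxa2 and 20 for Hoxa3. It was 29 for Hoxa5, 26 for Hoxa6 and 9 for Hoxa7. By coordinate the Hoxa3 entry lay between those of Hoxa6 and Hoxa7, outside the gene order given above, and no other start of Hoxa3 was counted. Hoxa9 held 4, the Hoxa10 promoters 12 and 21, Hoxa11 15 and Hoxa13 45. The members' median of 17.5 stood against a median of 7 over all 32851 promoters of that length, of which 29.7% held at least 17.5. The members therefore ran from CG-poor to very CG-rich: 68.6% of all promoters held at least the 4 of Hoxa9, and 1.93% held at least the 45 of Hoxa13. The promoters with the most and the fewest CG dinucleotides and Hoxa3, which with Hoxa11 lay nearest the members' median, are printed on the minus strand, with each CG in capitals. Their coordinates are those of GRCm38.p6 and do not correspond to the mm8 positions of the peaks.
Hoxa13, chr6:52260831-52261130: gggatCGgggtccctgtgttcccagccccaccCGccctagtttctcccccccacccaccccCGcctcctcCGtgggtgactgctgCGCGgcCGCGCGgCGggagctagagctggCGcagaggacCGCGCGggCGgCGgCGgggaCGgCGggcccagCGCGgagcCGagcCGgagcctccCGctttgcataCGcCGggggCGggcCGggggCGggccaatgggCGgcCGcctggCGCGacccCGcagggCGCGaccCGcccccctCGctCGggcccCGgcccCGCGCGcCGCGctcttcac
Hoxa3, chr6:52213018-52213317: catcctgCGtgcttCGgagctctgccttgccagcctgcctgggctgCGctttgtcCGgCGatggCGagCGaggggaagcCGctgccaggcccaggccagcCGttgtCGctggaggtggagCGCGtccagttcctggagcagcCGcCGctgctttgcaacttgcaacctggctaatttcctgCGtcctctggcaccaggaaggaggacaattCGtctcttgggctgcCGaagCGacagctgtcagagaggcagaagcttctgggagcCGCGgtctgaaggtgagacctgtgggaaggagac
Hoxa9, chr6:52227321-52227620: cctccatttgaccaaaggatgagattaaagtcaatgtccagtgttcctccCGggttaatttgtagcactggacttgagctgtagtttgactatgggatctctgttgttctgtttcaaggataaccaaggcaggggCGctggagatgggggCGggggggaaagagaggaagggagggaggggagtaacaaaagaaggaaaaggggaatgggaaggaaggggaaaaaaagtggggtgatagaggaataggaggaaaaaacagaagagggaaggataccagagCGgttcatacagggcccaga

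Input reads covered the whole window. After reads at the same position and strand were counted once, 21957101 PHF19 ChIP reads and 24496988 input reads remained, and the median 1 kb bin of chromosome 6 held 8 ChIP and 9 input reads. Every one of the 250 bins of the window had input reads, from 3 to 27 with a median of 11. Input density was 1.23 times the chromosome median over the window, and 0.821 to 2.21 times over single peaks. Plus-strand reads made up 50.3% of ChIP reads (49.0 to 51.5) and 50.2% of input reads (48.4 to 52.1) in the window, and 42.3% to 60% of ChIP reads in single peaks. Over all distinct reads the plus strand held 54.7% in the ChIP library and 53.8% in the input, above both window intervals. The cause of this imbalance was not tested. Intervals in parentheses are exact 95% intervals for counting error only. Amplified reads are not independent molecules, so the intervals may be too narrow.

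PHF19 ChIP reads formed several separate blocks of peaks. From the first to the last, the 35 peaks of the window spanned 162 kb. When neighbours up to 10 kb apart were joined, 3 longer spaces divided them into 4 runs. Together the peaks held 3590 ChIP reads and 951 input reads (4.21-fold; 3.92 to 4.53). Fold here means the fraction of distinct ChIP reads in a region over the fraction of distinct input reads. The peaks covered 31.4% of the window's bases and held 61.2% of its ChIP reads against 34.4% of its input reads. The 96 bins of 1 kb that touched a peak had a median of 38 ChIP and 11 input reads, and the 154 that touched none had 11 ChIP and 10 input reads. The plot of read density shows the blocks.

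**Figure D1:**
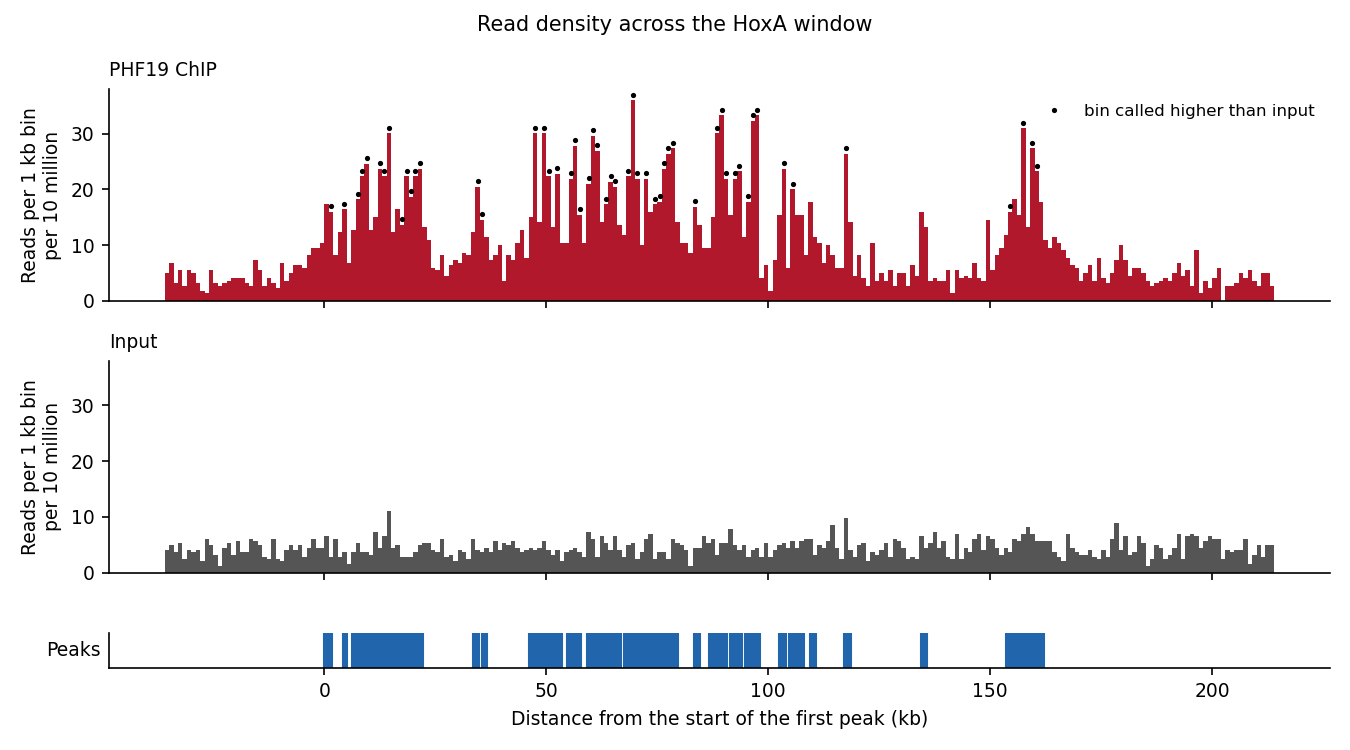
Reads per 1 kb bin scaled to 10000000 distinct reads of the library across the window, for the PHF19 ChIP library (top) and the input library (middle), with the 35 peaks as bars (bottom); dots mark the 53 bins called higher in the ChIP. The ChIP signal rises in blocks at the peaks. The input varies less but is not flat: it is 1.58 times the chromosome median in the peaks of the last run, against 1.23 over the window.

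The main stretch, run 2, lay at chr6:52119432-52204698 and held 23 peaks over 85.3 kb, 60.5% of it inside peaks. Run 1, at chr6:52086004-52108220, held 8 peaks over 22.2 kb and was more densely covered, at 78.9%. Run 3 was a lone peak of 1285 bp at chr6:52220455-52221739. Run 4, at chr6:52239552-52248081 and thus of highest coordinate, held 3 peaks over 8.53 kb, 96.3% of it inside peaks. The place of Evx1 in mm8 was not checked, so whether run 4 lies before, on or past Evx1 is not known here. The pooled fold in peaks was 4.02 (3.45 to 4.70) in run 1, 4.47 (4.08 to 4.89) in run 2, 2.90 (1.70 to 5.13) in run 3 and 3.46 (2.80 to 4.30) in run 4. All 4 intervals overlapped. Differences between the runs were not tested, and overlap alone does not show that their folds were equal.

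Because the peaks were called on these ChIP reads, their folds are a description and were not tested against input. Tests between regions, given further below, compare reads in peaks, gaps, spaces between runs or parts of the main stretch. All these regions were set by calling on these same reads. Every one of the 35 had a fold of at least 2, as did 98.6% of all peaks in the list, so this count says nothing about the cluster. A fold of at least 4 was found at 18 of the 35 (51.4%), against 40.6% of the whole list. The median fold was 4.07 in the window and 3.68 over the whole list, and the median width was 1734 bp in the window against 1425 bp. By the authors' score 15 of the 35 (42.9%) were among the 861 highest-scoring of the list, as were 25.0% of all peaks. Peaks of at least 4 kb numbered 6 of 35 (17.1%), against 5.11% of all peaks.

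The 3 highest authors' scores of the window all belonged to the main stretch. The top one, 890 and rank 72 in the list, was the peak at chr6:52180727-52184156, with 197 ChIP reads and 35 input reads (6.28-fold; 4.37 to 9.27). The next, at chr6:52172560-52176733, had a score of 732 and held 226 ChIP reads and 49 input reads (5.15-fold; 3.76 to 7.16). The one after it, at chr6:52153586-52157632, had a score of 630 and held 212 ChIP reads and 41 input reads (5.77-fold; 4.11 to 8.27). These lay in the inner part of the stretch, not at its ends.

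The widest peak of the window was outside the main stretch. It was the last peak, in run 4, 5551 bp at chr6:52242531-52248081 and rank 62 by width in the list, with 266 ChIP reads and 85 input reads (3.49-fold; 2.73 to 4.51). The next widest were in the main stretch: 4577 bp at chr6:52161124-52165700, with 230 ChIP and 47 input reads (5.46-fold; 3.97 to 7.64), and 4558 bp at chr6:52134865-52139422, with 211 ChIP and 45 input reads (5.23-fold; 3.78 to 7.39). Wider peaks had higher folds in the window, as in the whole list, where the median fold was 4.61 at 4 kb or wider, 4.07 at 2 to 4 kb and 3.51 below. In the window the 6 peaks of 4 kb or more had a pooled fold of 4.73 (4.18 to 5.37), the 7 of 2 to 4 kb 4.52 (3.94 to 5.21) and the 22 narrower ones 3.59 (3.20 to 4.03). The interval of the narrow peaks lay below that of the widest class and overlapped that of the middle class. The widest peak itself, at 3.49, was an exception. Width and fold both come from the ChIP reads on which the peaks were called, so their relation is only a description.

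The largest fold of the window was in run 1, at chr6:52103135-52105571, with 102 ChIP and 18 input reads (6.32-fold; 3.81 to 11.1). The peaks of rank 2 and 3 by fold were the 2 already given at 6.28 and 5.77. The smallest folds were 2.57 (1.49 to 4.58) at chr6:52241318-52242402 in run 4, from 46 ChIP and 20 input reads, and 2.79 at a pair of peaks in the main stretch. These were chr6:52148850-52149825, with 35 ChIP and 14 input reads (1.46 to 5.61), and chr6:52190684-52192456, with 70 ChIP and 28 input reads (1.78 to 4.49). Most single peaks could not be told from the pooled fold of 4.21 at this depth: the interval of 1 peak lay wholly above it and that of 1 peak wholly below it.

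**Figure D2:**
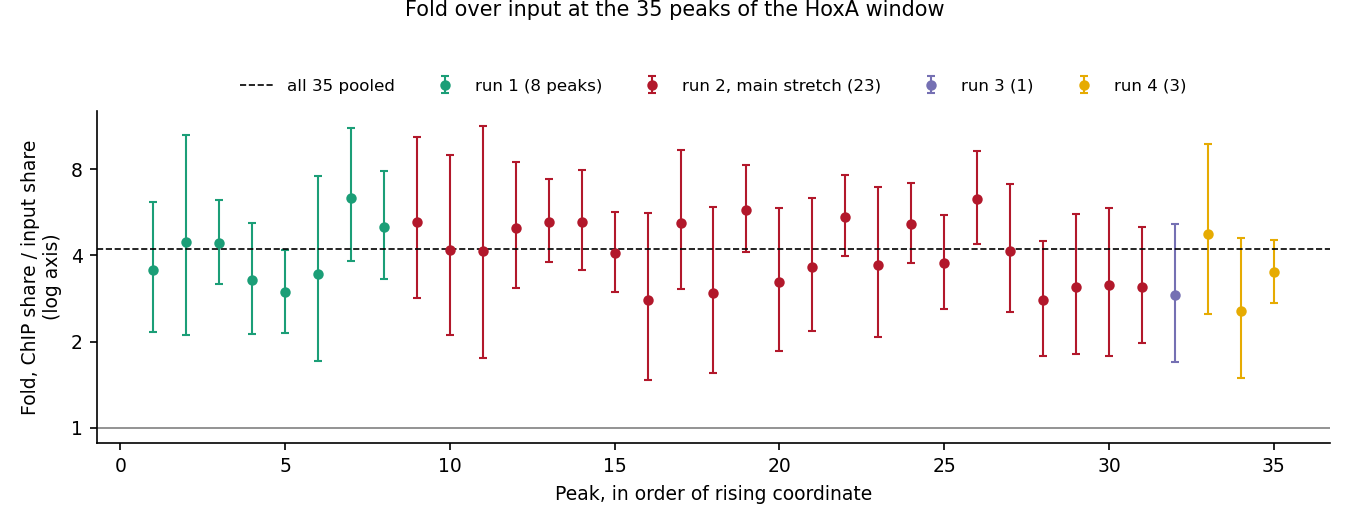
Fold over input at each of the 35 peaks in order of rising coordinate, on a log axis, coloured by run; points are the fold, bars the exact 95% interval for counting error, the dashed line the pooled fold of 4.21. Folds range from 2.57 to 6.32, and most intervals cross the dashed line.

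The other peaks of run 1 had folds from 2.98 to 5.02. Its first peak, at chr6:52086004-52087802, held 67 ChIP and 21 input reads (fold 3.56), and the next, at chr6:52090085-52091086, 36 and 9 (4.46). The broad peak at chr6:52092272-52096483 was the widest of the run, 4212 bp, with 182 ChIP and 46 input reads (4.41). It was followed at chr6:52096995-52098936 by 85 ChIP and 29 input reads (3.27). At chr6:52099046-52101605 the input was 2.21 times the chromosome median, the highest of any member, and 136 ChIP and 51 input reads gave the lowest fold of the run, 2.98 (2.14 to 4.19). The peak at chr6:52101675-52102616 held 34 and 11 reads (3.45), and the last of the run, at chr6:52105582-52108220, 126 and 28 (5.02). The intervals of the peaks at 5.02 (3.31 to 7.86), 4.46 (2.11 to 10.5) and 4.41 (3.18 to 6.24) overlapped.

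At the ends of the main stretch lay narrow peaks of 1496 and 1593 bp. The first, chr6:52119432-52120927, held 61 ChIP and 13 input reads (5.24-fold; 2.85 to 10.4), and the last, chr6:52203106-52204698, 75 ChIP and 27 input reads (3.10-fold; 1.97 to 5.01). Beyond it, run 3 held 52 ChIP and 20 input reads (2.90). In run 4 the peak before the broad one and its weak neighbour, chr6:52239552-52241133, held 51 ChIP and 12 input reads (4.74-fold; 2.49 to 9.77).

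Bins of fixed borders give a view that does not use the peak list. Of the 250 bins of 1 kb in the window, all of which had enough reads to be tested, 53 (21.2%) were called higher in the ChIP than in the input, against 0.157% of bins in the whole genome (exact binomial test, one-sided, given both libraries' reads in the bin; Benjamini-Hochberg adjustment over all 2531234 bins tested; called at an adjusted p of at most 0.05 and a fold of at least 2). At a fold of at least 4, 41 bins were called in the window, against 0.11% in the genome. With bins of 500 bp 48 of 478 tested were called, against 0.0664%, and with bins of 2 kb 46 of 125, against 0.294%. The called length thus moved with the bin size: 24 kb, 53 kb and 92 kb with bins of 500 bp, 1 kb and 2 kb. The window was proposed with earlier results of these data known, so its share of called bins is not independent evidence. Called bins had folds from 2.70 to 10.8 with a median of 5.02. All 53 touched a peak, as did 3805 of the 3982 bins called in the whole genome. The authors' peaks were drawn from the library whose reads fill these bins, and neither set of calls checks the other. Among the 96 bins that touched a peak 55.2% were called, against 41% of peak-touching bins in the whole genome. None of the 154 bins without a peak was called by this test; 25 of them (16.2%) had an unadjusted p under 0.05, against 3.83% of all bins tested.

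The called bins with the most ChIP reads were not those with the largest folds. Of the 5 with the most reads, the bin from 52155001 held 79 ChIP and 13 input reads (6.78-fold; 3.75 to 13.3; exact test, adjusted p = 2.22e-10). Those from 52175001 and 52183001 held 73 ChIP reads each, against 13 and 11 input reads, and the bin from 52182001 held 71 against 10. The last of the 5 lay in the broad peak of run 4, from 52243001, with 68 ChIP and 17 input reads (4.46-fold; 2.59 to 8.10). The largest folds among called bins, named after their values were seen, were 10.8 (4.67 to 30.6) from 52163001, 9.40 (4.29 to 24.4) from 52147001 and 9.20 (4.41 to 22.2) from 52174001, with 6 to 8 input reads each. The bins from 52155001, 52175001, 52182001 and 52183001 thus fell within the 3 peaks of highest score.

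The called bins did not form 1 continuous block. They fell into 25 separate runs, 11 of them of 1 bin, and the longest were 2 runs of 5 bins. In the whole genome there were 2208 such runs, 113 of them of at least 5 bins and the longest of 15. Called bins made up 13 of 23 bins in run 1, 36 of 86 in the main stretch, 0 of 2 in run 3 and 4 of 10 in run 4. The peak of run 3, with its 52 ChIP reads, was spread over both of its bins. Of the 35 peaks, 6 were touched by no called bin. They held 26 to 53 ChIP reads and were at most 1598 bp wide. The share of such peaks in the whole list is not given here, so this count is not read as a trait of the cluster.

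The spaces between the peaks of the main stretch held more ChIP than input reads. Its 22 gaps covered 33.7 kb, had a median width of 568.5 bp, and held 614 ChIP and 360 input reads (1.90-fold; 1.67 to 2.17). Of these, 14 were under 1 kb, with a fold of 2.17 (1.46 to 3.29), while the 4 gaps of 3 kb or more had 1.80 (1.54 to 2.11). Far from peaks, in bins more than 100 kb from any of them, the fold was 0.980, while the 10 kb below the first peak of the window had 1.69 (1.32 to 2.19) and the 10 kb above the last 1.90 (1.48 to 2.44). The largest folds in single peak-free spaces with at least 20 reads were 5.02 (1.65 to 20.4) in run 1, at chr6:52091087-52092271 with 18 ChIP and 4 input reads, then 4.88 (2.22 to 12.2) at chr6:52143786-52145126 and 2.98 (1.11 to 9.28) at chr6:52176734-52177272. Small spaces carry few reads, and their intervals are wide. Of the 15 spaces with at least 20 reads, the interval lay above 1 in 11.

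Of the 3 spaces between the runs, the one at lowest coordinate had the highest fold. The space between run 1 and the main stretch, 11.2 kb at chr6:52108221-52119431, held 191 ChIP and 113 input reads (1.89-fold; 1.49 to 2.40). The space after the main stretch, 15.8 kb at chr6:52204699-52220454, held 182 ChIP and 154 input reads (1.32-fold; 1.06 to 1.64). The space between runs 3 and 4, 17.8 kb at chr6:52221740-52239551, held 218 ChIP and 214 input reads (1.14-fold; 0.937 to 1.38). The first of these was 1.43 times the next (1.03 to 1.99; exact two-sided Fisher test, adjusted p = 0.0453 over 3 comparisons) and 1.66 times the one before run 4 (1.22 to 2.27; exact test, adjusted p = 0.00277). The other two were not shown to differ, at a ratio of 1.16 for the lower-lying over the higher (0.863 to 1.56; exact test, adjusted p = 0.344). These comparisons were chosen after the values were seen. Besides the 2 spaces at high coordinate, the smallest fold with at least 20 reads was 1.37 (0.829 to 2.27), inside the main stretch at chr6:52170655-52172559 with 38 ChIP and 31 input reads.

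**Figure D3:**
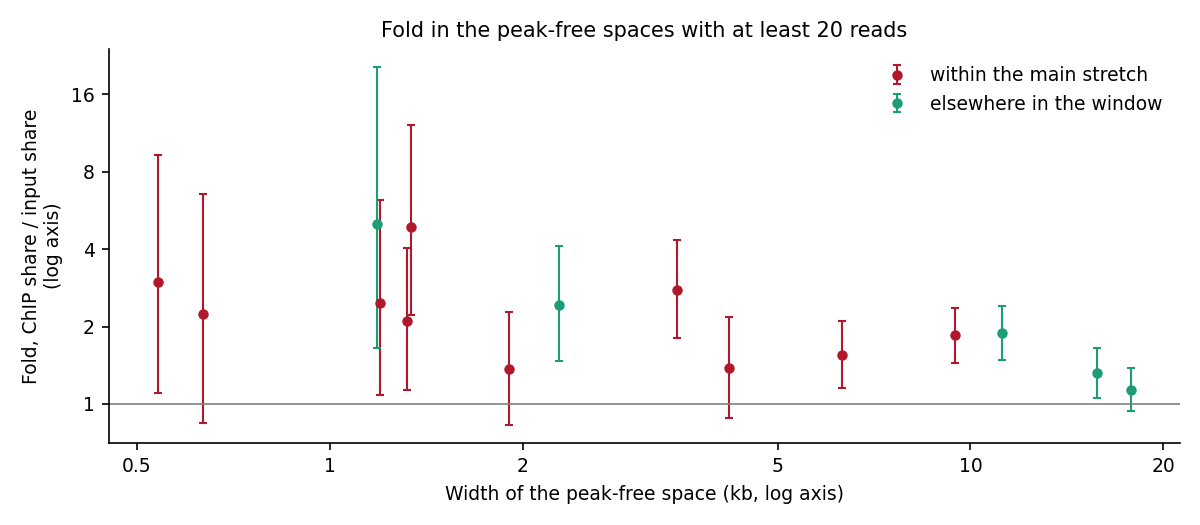
Fold in each peak-free space of the window with at least 20 reads against its width, both on log axes; points are the fold and bars the exact 95% interval for counting error. The 2 widest spaces, 15.8 and 17.8 kb, have the lowest folds, 1.32 and 1.14, while the space of 11.2 kb has 1.89.

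Reads in the gaps of the main stretch were set against reads at the same distance from a peak edge elsewhere in the genome, a comparison chosen after the gaps were seen. At 0 to 250 bp the fold was 2.32 in the HoxA gaps and 1.78 elsewhere, a ratio of 1.30 (0.990 to 1.73; exact two-sided Fisher test, adjusted p = 0.0846 over 5 distances). At 500 to 1000 bp the folds were 2.14 and 1.52, a ratio of 1.41 (1.003 to 1.97; exact test, adjusted p = 0.0846). At 2000 to 5000 bp they were 1.52 and 1.12, a ratio of 1.35 (1.05 to 1.74; exact test, adjusted p = 0.0846). The HoxA gaps were higher at all 5 distances, but none passed the adjusted threshold, and a gap has a peak on both sides where most positions elsewhere have a peak on only 1.

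Outwards to 20 kb the fold declined step by step on the low-coordinate side, where neighbouring intervals overlapped, and not on the other. No step was tested. Below the first peak the fold was 2.23 (1.31 to 3.91) within 2 kb and 1.76 (1.12 to 2.81) between 2 and 5 kb. Between 5 and 10 kb it was 1.41 (0.955 to 2.10), between 10 and 20 kb 0.897 (0.667 to 1.20) and between 20 and 35 kb 0.976 (0.762 to 1.25). Above the last peak it was 1.75 (1.08 to 2.86) within 2 kb and 3.88 (2.30 to 6.84) at 2 to 5 kb, where 66 ChIP and 19 input reads lay in no peak and in no called bin; the input there was 0.704 times the chromosome median. Between 5 and 10 kb it was 1.28 (0.875 to 1.88), between 10 and 20 kb 1.32 (1.01 to 1.72) and between 20 and 35 kb 1.04 (0.829 to 1.30). On the low-coordinate side the intervals included 1 from 5 kb outwards, and on the high-coordinate side they did so at 5 to 10 kb and beyond 20 kb.

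**Figure D4:**
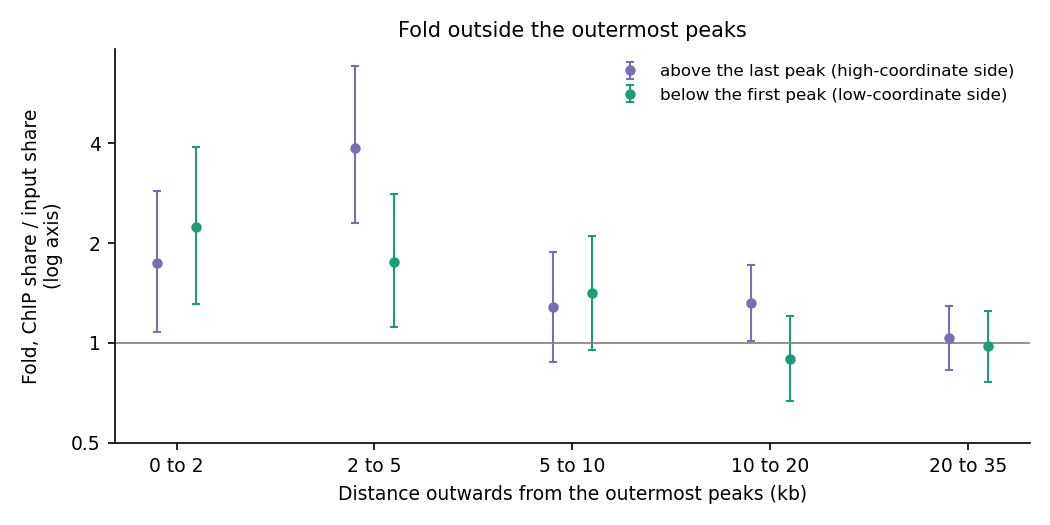
Fold outside the outermost peaks of the window by distance outwards, on a log axis, above the last peak and below the first; points are the fold and bars the exact 95% interval for counting error. Both sides are at about 1 beyond 20 kb, and the value of 3.88 at 2 to 5 kb above the last peak is the highest of the 10 values.

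Within 10 kb outside the main stretch the fold was 1.31 (0.9996 to 1.73) on the high-coordinate side and 1.89 (1.46 to 2.45) on the low-coordinate side, which lies wholly in the space after run 1; the intervals overlapped and the difference was not tested. In steps of 10 kb along the window, 9 of 25 segments had an interval wholly above 2. These were a pair in run 1 from 52090001 to 52110000, 6 neighbouring ones in the main stretch from 52130001 to 52190000 and the 1 of run 4 from 52240001. Within the 6 the fold ran from 3.65 to 4.51. In the 2 segments before them it was 1.92 (1.48 to 2.51) and 2.20 (1.75 to 2.79), and in the 2 segments after them 2.38 (1.92 to 2.97) and 1.88 (1.49 to 2.38).

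Along the main stretch the part above its midpoint was lower than the part below it when peaks and gaps were counted jointly. The fold was 3.25 (2.93 to 3.60) above the midpoint, from 1453 ChIP and 499 input reads, and 3.79 (3.41 to 4.21) below it, from 1568 ChIP and 462 input reads. The ratio was 0.858 (0.740 to 0.995; exact two-sided Fisher test, p = 0.0416). The ends and midpoint of the stretch came from peaks called on these same ChIP reads and joined up to 10 kb apart. The ratio was not computed for other joining distances, and its interval, which nearly reaches 1, covers counting error only. Peaks covered 55.5% of the part above the midpoint and 65.5% of the part below it. In peaks alone the ratio was 0.952 (0.793 to 1.14; exact test, p = 0.615), and in gaps alone it was 0.840 (0.639 to 1.10; exact test, p = 0.204). A difference in the fold at peaks alone or in gaps alone was thus not detectable at this depth, and both were set by calling on these same ChIP reads. The parts of peaks, gaps and the share of bases in peaks in the difference over the whole stretch were not tested.

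The main stretch was last set against the densest stretches of peaks on chromosomes 11, 15 and 2, the chromosomes of the HoxB, HoxC and HoxD clusters. These stretches are named below by their chromosome alone and, like the HoxA window, were not checked against an mm8 annotation. They held 25 peaks over 124 kb on chromosome 11, 24 over 106 kb on chromosome 15 and 16 over 56.8 kb on chromosome 2. The HoxA stretch had 60.5% of its bases in peaks, against 52.9% for HoxB, 47.5% for HoxC and 64.1% for HoxD, and its gaps had the smallest median width, 568.5 bp against 1122, 2127 and 1092 bp, but also the widest single gap, 9.47 kb against 9.25, 6.07 and 4.75 kb. The fold in peaks was 4.47 in HoxA and 3.89 (3.61 to 4.21) in HoxB, a ratio of 1.15 (1.02 to 1.29; exact two-sided Fisher test, adjusted p = 0.0668 over the 3 clusters). Against HoxC the ratio was 1.02 (0.891 to 1.16; exact test, adjusted p = 0.818), and against HoxD it was 0.897 (0.776 to 1.04; exact test, adjusted p = 0.208). In the gaps the ratios were 0.983 (0.834 to 1.16; exact test, adjusted p = 0.838) against HoxB, 0.904 (0.765 to 1.07; exact test, adjusted p = 0.362) against HoxC and 0.788 (0.633 to 0.981; exact test, adjusted p = 0.0932) against HoxD. Peaks and gaps of every stretch were set by calling on these same ChIP reads, so these tests compare regions selected on the reads counted. None of the 6 ratios passed the adjusted threshold. The intervals leave room for peaks 1.29 times those of HoxB and for gaps 0.633 times those of HoxD.

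**Figure D5:**
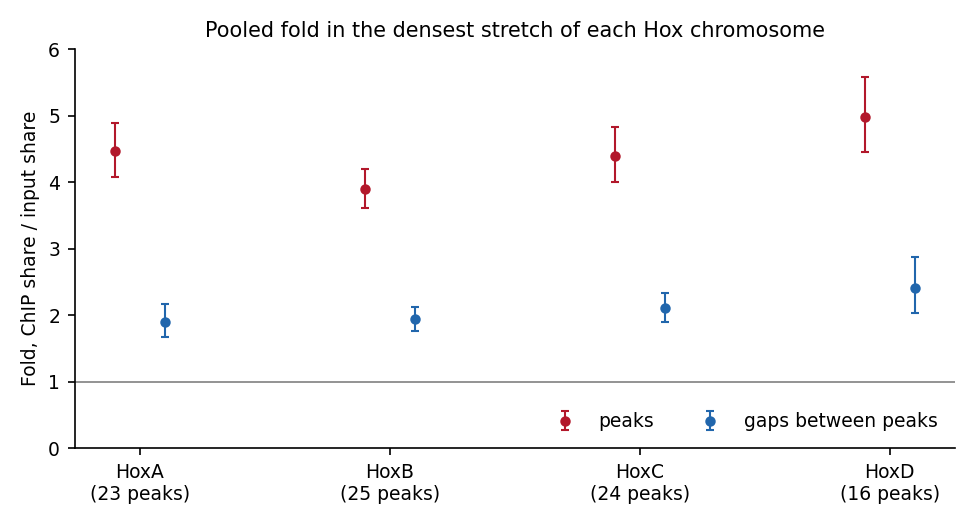
Pooled fold in the peaks and in the gaps between peaks of the densest stretch on the chromosomes of the HoxA, HoxB, HoxC and HoxD clusters; points are the fold and bars the exact 95% interval for counting error. Peaks lie between 3.89 and 4.98 and gaps between 1.90 and 2.41 in all 4 stretches.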

How the data were processed

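Aligned reads of 1 PHF19 ChIP and 1 input library, deposited by the authors as lines of 42 bases, had been mapped with Bowtie (version not given in the sources used here) to the mm8 genome, per the submitters' processing notes. Read counts were computed from these deposited lines. The peak list is titled as coming from MACS, per the file headers; the score of each peak is the authors' own and served only to rank and describe peaks. The sources used here give neither the caller's settings nor its use of the input.

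Reads at the same position and strand were counted once. This took out 8.38% of lines in the ChIP library and 7.33% in the input (4.46% and 3.39% in the window). The 5′ ends were moved inwards by 54 bp, from the largest overlap between strands in the input at a lag of 108 bp; the ChIP gave 41 bp, close to the read length, and was not used. Folds have exact conditional binomial intervals. Bins were tested over the whole genome and regions compared by exact two-sided Fisher tests with Benjamini-Hochberg adjustment. Scripts were tested on simulated data. The work used scipy 1.17.1, numpy 2.4.6, matplotlib 3.10.9 and pandas 2.3.3 under Python 3.11.15.

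Named with values were the 3 peaks of highest score, greatest width, largest and smallest fold, the ends of the main stretch, all peaks outside it, the 3 widest and most extreme gaps with at least 20 reads, and the 5 called bins with most ChIP reads. The members and lists were chosen with earlier results of these data known. Alternatives were tried for duplicates, the shift, the scaling, call thresholds, bin size, peak set, peak borders, flank width and the joining distance.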

Additional observations from a re-analysis of the deposited data

How the results depend on the processing

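No paired analysis was possible because there was 1 library per group. Of 57 alternatives, 43 gave the same call and direction, a value within its counting interval, or a count within 1.5 times. The 53 called bins became 41 at a fold of 4 (0.11% of bins in the genome), 48 with 500 bp bins (0.0664%) and 46 with 2 kb bins (0.294%), or 24 kb and 92 kb of called length against 53 kb. Joining peaks up to 5 kb apart gave a main stretch of 64.7 kb with 20 peaks, joining up to 20 kb gave 162 kb with all 35, and the upper-scoring part of the list gave 59.5 kb with 14, in place of 85.3 kb. The fold in peaks was 3.85 with peaks widened by 500 bp. The fold in gaps was 2.32 with the upper-scoring part of the list, whose gaps take in the weaker peaks, and 1.65 over all gaps of the window. The low-coordinate flank was 2.95 over 20 kb, which reaches into the peaks of run 1. The ratio above to below the midpoint was 0.952 in peaks alone and 0.840 in gaps alone, neither of which passed. Against HoxB, the ratio in peaks was 1.15 over all peaks of the windows (exact test, adjusted p = 0.0211) and passed; against HoxC it was then 0.994, reversed from 1.02. Gaps passed against HoxD at 0.762 with duplicates kept (exact test, adjusted p = 0.0339) and 0.665 with peaks widened (exact test, adjusted p = 0.0150), and against HoxC at 0.783 with peaks widened (exact test, adjusted p = 0.0303). The cause was not tested, and these peaks and gaps were themselves set on the ChIP reads counted. The 3 alternatives with the main stretch alone, all gaps or all peaks of the windows were chosen after seeing the data. The wide counting intervals of single narrow peaks and gaps limit any order among them.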
